A study of Mus musculus with 4 samples.

Results

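The genes described here encode 5 mitochondrial acyl-CoA dehydrogenases (Acadvl, Acadl, Acadm, Acads and Acadsb) and the 3 electron transfer proteins that serve them (Etfa, Etfb and Etfdh). These 8 genes were taken as a fixed list by function, and all 8 were found among the 27998 genes of the count table. Their transcripts were measured in single epithelial cells of mouse small intestine after a control diet or a ketogenic diet, which is rich in fat and very low in carbohydrate. Each diet had 2 droplet libraries (10x Single Cell 3' v2), and the cell table lists all donors as male. The sources used here do not give strain, age, genotype, diet composition or time on diet. Nothing states whether a library came from 1 mouse or several, so the spread between libraries may be partly technical.

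Beta-oxidation shortens a fatty acid inside the mitochondrion by repeated rounds, and an acyl-CoA dehydrogenase opens each round by placing a double bond in the chain and passing a pair of electrons to its bound FAD. The enzymes differ in the chain they prefer: Acadvl takes very long chains at the inner membrane, Acadl long chains, Acadm medium chains and Acads short chains, while Acadsb acts on short branched chains that arise in isoleucine breakdown. The electrons pass to electron transfer flavoprotein, a dimer of the Etfa and Etfb products, and from there to the Etfdh product, a membrane enzyme that hands them to coenzyme Q of the respiratory chain. In the small intestine, absorptive enterocytes take up dietary fat, and stem cells at the crypt base are known to burn fatty acids.

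Promoters are shown for the 3 enzymes of the longer chains, since the results turn on them: Acadvl and Acadl were called and Acadm was not. The sequences are RefSeq windows on build GRCm38.p6 from 250 bases before to 50 bases after the annotated start, on the gene's own strand, which is the minus strand for each of the 3. Acadvl lies at chr11:70015379-70015678, Acadl at chr1:66863260-66863559 and Acadm at chr3:153944594-153944893. Capitals mark the half-site AGGTCA, bound by PPAR and RXR nuclear receptors among others, and the GC box GGGCGG, bound by the Sp1 family, each on either strand.

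Acadvl: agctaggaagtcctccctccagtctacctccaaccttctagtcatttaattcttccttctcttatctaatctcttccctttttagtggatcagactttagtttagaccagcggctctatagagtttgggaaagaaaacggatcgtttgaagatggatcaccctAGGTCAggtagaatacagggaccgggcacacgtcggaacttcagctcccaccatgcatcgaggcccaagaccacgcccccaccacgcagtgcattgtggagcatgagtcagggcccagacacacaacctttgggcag

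Acadl: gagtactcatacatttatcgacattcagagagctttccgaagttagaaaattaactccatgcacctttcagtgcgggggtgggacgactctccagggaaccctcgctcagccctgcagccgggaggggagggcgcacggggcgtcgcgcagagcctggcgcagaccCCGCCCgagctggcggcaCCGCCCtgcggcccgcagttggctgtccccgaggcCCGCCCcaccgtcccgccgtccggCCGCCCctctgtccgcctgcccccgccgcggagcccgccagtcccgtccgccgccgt

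Acadm: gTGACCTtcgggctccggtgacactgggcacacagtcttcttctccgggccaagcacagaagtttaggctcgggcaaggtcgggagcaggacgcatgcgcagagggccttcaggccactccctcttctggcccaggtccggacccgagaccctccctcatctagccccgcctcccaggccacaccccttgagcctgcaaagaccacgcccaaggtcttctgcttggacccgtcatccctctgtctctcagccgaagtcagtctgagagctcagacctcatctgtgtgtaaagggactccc

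The Acadl window had 4 GC boxes, whose first bases lay 84, 66, 31 and 7 bases upstream of the start, and no AGGTCA. The Acadvl window had AGGTCA 87 bases upstream and no GC box, and the Acadm window had it on the opposite strand 249 bases upstream. The GC content was 70.3% for Acadl, 50.7% for Acadvl and 62.3% for Acadm. Over all 8 genes, AGGTCA was found in 2 promoters, against 16.3% of 32851 RefSeq promoters of the same length, and GGGCGG in 5, against 35.7%. The repeat AGGTCANAGGTCA was in none of the 8 and in 0.0396% of all promoters, and TCAAGGTCA, the extended site of the estrogen-related receptors, in none of the 8 and 0.423% of all. Both longer motifs contain AGGTCA, and a letter match is a description of the window, not a binding site.

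The genes lie on 6 chromosomes (GENCODE M21, mm10), with Acadm and Etfdh on one and Acadsb and Etfb on another: Acadvl on chr11:70010183-70015411, Acadl on chr1:66830839-66863277, Acadm on chr3:153922357-153944632, Acads on chr5:115110299-115119346, Acadsb on chr7:131410601-131448944, Etfa on chr9:55454508-55512243, Etfb on chr7:43444083-43457800 and Etfdh on chr3:79603788-79629500. Exons of Acadvl overlap those of Dvl2 on the opposite strand, and exons of Etfdh overlap those of 4930579G24Rik. Dvl2 had 639 UMIs and 4930579G24Rik 550 UMIs over all cells, and the sources used here do not say whether counting used strand.

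The 4 libraries held 3194 to 4896 cells and 27316428 to 34106639 UMIs (unique molecular identifiers, counted transcripts). Of 14943 barcode sequences, 109 occurred in more than 1 library. Each cell carried 1 of 7 deposited type names, and the defining markers named next were highest in the type they stand for: Lgr5 stood at 207 CPM (UMIs of the gene per 1000000 UMIs) in stem cells against 6.07 to 26.9 in the other types, Alpi at 87.1 CPM in enterocytes against 3.42 to 14.3, Chga at 954 CPM in enteroendocrine cells and Dclk1 at 731 CPM in tuft cells. Top2a, of the cell cycle, stood at 195 CPM in transit amplifying cells against 11.1 to 66.8 in the others. Not all listed markers were specific: Fabp2 stood at 1733 CPM in goblet cells against 1578 CPM in enterocytes, and the stem markers Ascl2 and Smoc2 at 116 and 201 CPM in tuft cells against 124 and 245 CPM in stem cells. The Paneth class also held goblet markers, with Muc2 at 2588 CPM against 2018 CPM in goblet cells, so it was not a clean Paneth population. Its 6 Paneth markers summed to 84279 and 47480 CPM on the control diet and to 214812 and 155047 CPM on the ketogenic diet. Immune markers summed to at most 26.6 CPM and stromal and vessel markers to at most 13.1 CPM in any class and library.

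The whole epithelium was compared first, with counts summed per library over all cells. The 8 genes together summed to 828 and 807 CPM in control libraries 1 and 2 and to 1054 and 1025 CPM in ketogenic libraries 1 and 2. The dehydrogenases contributed 317 and 314 CPM on the control diet and 434 and 432 CPM on the ketogenic diet, and the electron transfer genes 510 and 493 CPM against 620 and 593 CPM. In such sums a larger share of cells of a type and more RNA per cell cannot be told apart.

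By chain length, Acadvl stood at 103 and 105 CPM on the control diet and at 171 and 169 CPM on the ketogenic diet. Acadl stood at 55.7 and 51.6 CPM on the control diet and at 92.6 and 96.9 CPM on the ketogenic diet. Both genes were higher in each ketogenic library than in either control library. Acadm had 80.5 and 78.9 CPM on the control diet and 76.5 and 74.0 CPM on the ketogenic diet, and was the 1 gene of the 8 that lay lower in both ketogenic libraries. The log2 fold change (ketogenic against control, ± standard error, 2 libraries a diet) was 0.82 ± 0.09 for Acadl, with an edgeR quasi-likelihood Benjamini-Hochberg adjusted p = 0.0417. For Acadvl it was 0.71 ± 0.09 with an edgeR adjusted p = 0.0538, just outside the 0.05 threshold, and for Acadm -0.08 ± 0.09 with an edgeR adjusted p = 0.771.

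The other 5 genes had values in all cells between the first 2 and Acadm. Their log2 fold changes were 0.22 ± 0.09 for Acads, 0.41 ± 0.13 for Acadsb, 0.17 ± 0.09 for Etfa, 0.32 ± 0.09 for Etfb and 0.36 ± 0.09 for Etfdh, none of them past the threshold. Thus 1 of 8 genes was called in all cells, where 0.172% of 12784 tested genes were called. Both ketogenic libraries lay above both control libraries for 7 of the 8, against 22.4% of tested genes, and the median log2 fold change of the 8 was 0.34 against 0.01 for all tested genes. The Acadl call in all cells was lost without ketogenic library 1 (edgeR adjusted p = 0.107) or ketogenic library 2 (edgeR adjusted p = 0.196), at log2 fold changes of 0.84 and 0.78. It was also lost among cells under 10% mitochondrial UMIs and without the cells of highest doublet score (edgeR adjusted p = 0.0509 and 0.0539). Without either control library Acadvl was called too (edgeR adjusted p = 0.0335 and 0.0177), among 120 and 364 of all genes, against 22 with the 4 libraries. It also passed with an equal mix of the 7 types in every library (log2 fold change 0.73, edgeR adjusted p = 0.0231). For that mix each type had equal weight and was scaled to the library's total UMIs, so its sums are not raw counts. The edgeR p-value for the mix is thus less firm.

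**Figure D1:**
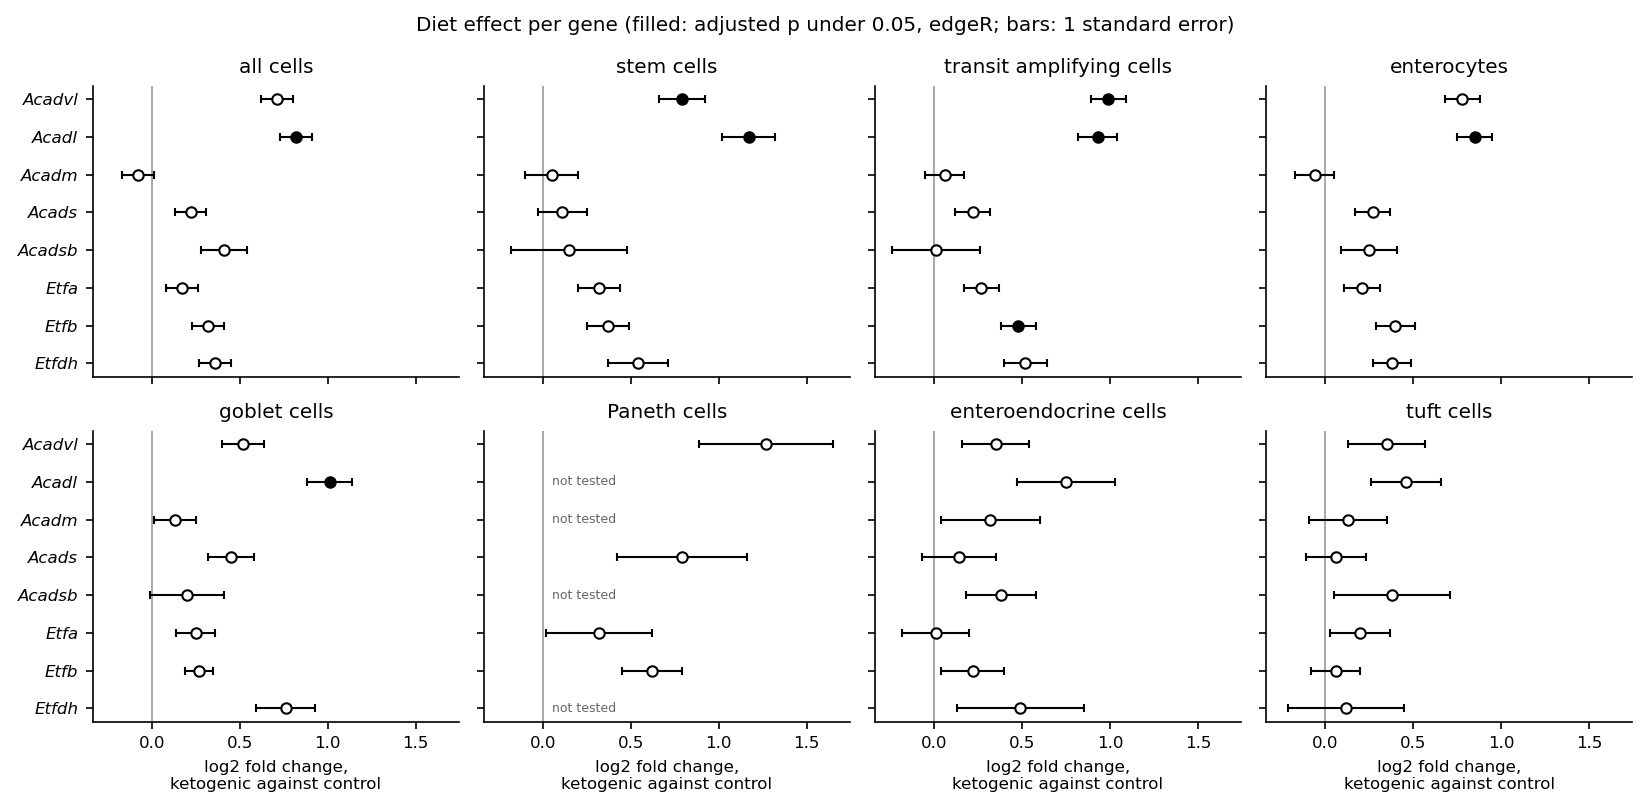
Log2 fold change of each gene, ketogenic against control, in all cells and in each of the 7 cell types. Points are edgeR estimates, bars are 1 standard error, and filled points have an adjusted p under 0.05. Acadl is filled in all cells, stem cells, transit amplifying cells, enterocytes and goblet cells, and Acadvl in stem and transit amplifying cells, while Acadm lies near 0 in all cells and in the first 3 types shown (-0.08, 0.05, 0.06 and -0.06).

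In stem cells both enzymes of the longest chains rose, and the medium-chain enzyme overlapped between the diets. Acadl had 38.3 and 42.7 CPM on the control diet and 88.3 and 95.2 CPM on the ketogenic diet. Acadvl had 81.7 and 86.7 CPM on the control diet and 150 and 143 CPM on the ketogenic diet. The diets did not overlap for either gene. The log2 fold change was 1.17 ± 0.15 for Acadl (edgeR adjusted p = 5.3e-05), a 2.26-fold rise, and 0.79 ± 0.13 for Acadvl (edgeR adjusted p = 0.00143), a 1.74-fold rise.

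Acadm in stem cells had 58.7 and 78.4 CPM on the control diet and 75.1 and 69.8 CPM on the ketogenic diet, so that both ketogenic values fell between the control values. Acads, with 66.9 and 64.2 CPM against 66.2 and 74.2 CPM, and Acadsb, with 6.13 and 12.6 CPM against 10.1 and 11.7 CPM, also overlapped between diets. The standard errors of these 3 log2 fold changes were 0.15 for Acadm, 0.14 for Acads and 0.33 for Acadsb, which rested on 12 to 41 UMIs a library.

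The electron transfer genes in stem cells did not pass the threshold, though no diet values overlapped. Etfa had 157 and 154 CPM on the control diet and 191 and 198 CPM on the ketogenic diet. Etfb had 197 and 218 CPM against 271 and 266 CPM, and Etfdh 30.1 and 35.0 CPM against 50.7 and 45.9 CPM. Their log2 fold changes were 0.32 ± 0.12, 0.37 ± 0.12 and 0.54 ± 0.17, with edgeR adjusted p = 0.509, 0.375 and 0.321. In all, 2 of the 8 genes were called in stem cells, where 0.336% of 9514 tested genes were called, and 5 of 8 had both ketogenic libraries above both control libraries, against 17.4%. Acadl and Acadvl were the 2 called under each of the 11 alternative settings run on stem cells.

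In transit amplifying cells, the dividing progeny of stem cells, 3 of 8 genes rose, against 0.715% of 10069 tested genes called. Acadvl had 92.9 and 101 CPM on the control diet and 190 and 195 CPM on the ketogenic diet (0.99 ± 0.10 on the log2 scale, edgeR adjusted p = 0.000299). Acadl had 59.8 and 53.1 CPM against 106 and 109 CPM (0.93 ± 0.11, edgeR adjusted p = 0.00127). Neither gene had overlapping values. Etfb, the small subunit of the flavoprotein, was the only electron transfer gene called in any type under the settings of the main test, at 264 and 283 CPM on the control diet and 407 and 358 CPM on the ketogenic diet. Its log2 fold change was 0.48 ± 0.10 with an edgeR adjusted p = 0.0489, and the call was lost without ketogenic library 1 (0.38, edgeR adjusted p = 0.439) and with RLE size factors (edgeR adjusted p = 0.0537). Etfdh, with 36.1 and 34.8 CPM against 50.6 and 50.8 CPM, had tight values within each diet and a log2 fold change of 0.52 ± 0.12 (edgeR adjusted p = 0.0895). Acadm, at 58.6 and 69.1 CPM on the control diet and 64.9 and 68.3 CPM on the ketogenic diet, again overlapped. Both ketogenic libraries lay above both control libraries for 6 of 8 genes, against 20.1% of tested genes.

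In enterocytes 1 of 8 genes was called, against 0.18% of 11697 tested genes. Acadl stood at 62.4 and 56.7 CPM on the control diet and at 108 and 107 CPM on the ketogenic diet, a log2 fold change of 0.85 ± 0.10 (edgeR adjusted p = 0.0473). Acadvl stood at 121 and 123 CPM on the control diet and at 219 and 202 CPM on the ketogenic diet, a log2 fold change of 0.78 ± 0.10 with an edgeR adjusted p = 0.0507. The size of the Acadl change held without ketogenic library 1 or 2 (0.84 and 0.86) while the call was lost (edgeR adjusted p = 0.231 and 0.179), and without control library 1 or 2 Acadvl was called as well (edgeR adjusted p = 0.00485 and 0.00322). In those 2 fits 228 and 760 of all genes were called, against 21 with the 4 libraries, and without ketogenic library 1 or 2 the number was 12 and 32. Acadm had 96.3 and 90.7 CPM on the control diet and 95.3 and 84.3 CPM on the ketogenic diet, with overlap. The other 5 genes were higher in both ketogenic libraries without passing, from 0.21 ± 0.10 for Etfa to 0.40 ± 0.11 for Etfb on the log2 scale. In this type 7 of 8 genes had no overlap and lay higher on the ketogenic diet, against 22.9% of tested genes. Ketogenic library 1 stood apart in enterocyte markers, whose 7 genes summed to 5198 CPM in its enterocytes against 3302 to 3596 CPM in the other libraries. Acadvl was higher in that library than in ketogenic library 2, at 219 against 202 CPM. So were Etfb (436 against 393 CPM), Acadm (95.3 against 84.3), Etfdh (58.6 against 54.7), Etfa (224 against 218) and Acads (86.7 against 85.6). Acadl was 108 and 107 CPM, and Acadsb was lower, at 8.58 against 9.58 CPM. Hadha, the alpha subunit of the trifunctional protein, was higher, at 191 against 141 CPM. The part of the marker difference in these results was not tested.

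Whether stem cells and enterocytes responded differently was tested as an interaction over their 8 sums, each library serving as its own block. None of the 8 genes differed past the threshold (edgeR), against 0.259% of 11570 tested genes. None had an unadjusted p under 0.05, against 6.94% of tested genes, and none was called by DESeq2, against 0.104%. For Acadl, the log2 fold change in stem cells was larger by 0.33 ± 0.17 (unadjusted p = 0.0556, edgeR adjusted p = 0.722). For Acadvl the difference was 0.04 ± 0.14 and for Acadm 0.14 ± 0.17. Other pairs of types were not compared in this way, so a call in one type and not in another does not show a difference.

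Goblet cells, which secrete mucus, had lower levels of most of these genes and 1 call, against 0.521% of 9984 tested genes. Acadl had 27.5 and 27.2 CPM on the control diet and 52.9 and 57.5 CPM on the ketogenic diet. This was a 2.02-fold rise (log2 fold change 1.01 ± 0.13, edgeR adjusted p = 0.000811), with no overlap. Acadvl had 45.5 and 50.4 CPM against 66.5 and 70.9 CPM (0.52 ± 0.12, edgeR adjusted p = 0.0717), and Etfdh 15.4 and 16.1 CPM against 29.7 and 23.8 CPM (0.76 ± 0.17, edgeR adjusted p = 0.0709). For 7 of 8 genes, Acadsb being the exception, both ketogenic libraries lay above both control libraries, against 19.4% of tested genes. Without control library 2 the count called was 5, adding Acadvl, Acads, Etfa and Etfdh to Acadl, without ketogenic library 2 it was 3, and without control library 1 or ketogenic library 1 it was 2. The number of all genes called was 52 with the 4 libraries and 180, 121, 189 and 99 in these fits, in the same order.

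The 3 rarest classes gave no call. The Paneth class had 35 to 56 cells a library, and 4 of the 8 genes passed the filter on low counts. None of these 4 was called by edgeR (0.44% of 2957 tested genes were) or by DESeq2 (0.338%), and 2 had an unadjusted p under 0.05, against 7.68% of tested genes. Acadvl had 9 and 7 UMIs there on the control diet against 21 and 20 on the ketogenic diet, and Acadl, which was not tested, had 7 and 13 against 10 and 7. The Paneth markers, given above, were higher in both ketogenic libraries, as was Acadvl but not Acadl. The part of this marker shift in the values of the class was not tested. In enteroendocrine cells, which secrete hormones, none of 8 was called by edgeR (0.0582% of 6877 tested genes were) or by DESeq2 (0.0291%), and 1 had an unadjusted p under 0.05, against 4.61%. Acadl had 46.1 and 30.1 CPM on the control diet and 63.8 and 56.9 CPM on the ketogenic diet there, a log2 fold change of 0.75 ± 0.28. In tuft cells, chemosensory cells of the epithelium, none of 8 was called by edgeR (0.0144% of 6963 tested genes were) or by DESeq2 (0.0287%), and 1 had an unadjusted p under 0.05, against 5.34%. Acadl had 68.7 and 93.9 CPM against 118 and 108 CPM there (0.46 ± 0.20), without overlap. Both ketogenic libraries lay above both control libraries for 4 of 4 tested genes in the Paneth class, where a gene high on one diet could pass the filter through it, for 6 of 8 in enteroendocrine cells and for 3 of 8 in tuft cells. The shares of all tested genes were 19.1%, 16.8% and 17.5%.

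**Figure D2:**
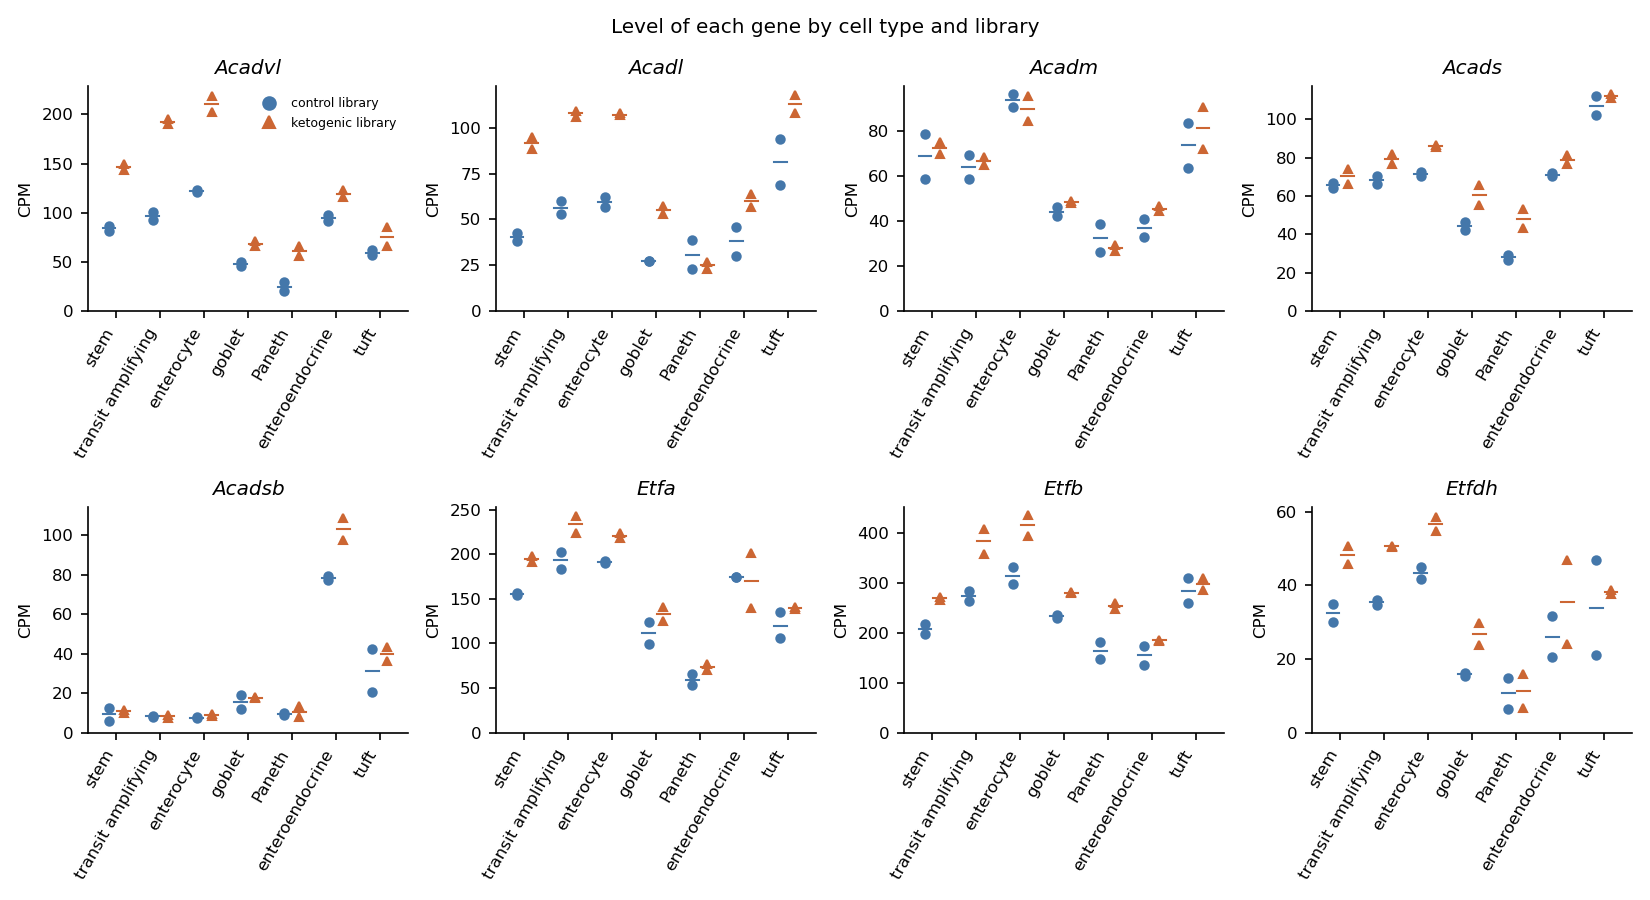
Level of each of the 8 genes in CPM (linear axis from 0, TMM-adjusted library sizes) in 7 cell types. Circles are the 2 control libraries, triangles the 2 ketogenic libraries and short lines the mean of each pair. Acadl in stem cells rises from 38.3 and 42.7 to 88.3 and 95.2 CPM, Acadm overlaps there, and Acadsb stands at 77.5 to 109 CPM in enteroendocrine cells.

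Acadl and Acadm were also compared directly, as the ratio of Acadl to Acadm UMIs, which needs no scaling between libraries. Over all cells the ratio was 0.693 and 0.654 on the control diet and 1.21 and 1.31 on the ketogenic diet. In stem cells it was 0.652 and 0.545 against 1.17 and 1.36, and in enterocytes 0.647 and 0.625 against 1.13 and 1.27. Goblet cells had 0.598 and 0.644 against 1.10 and 1.18, and transit amplifying cells 1.02 and 0.769 against 1.64 and 1.59. Both ketogenic values exceeded both control values in 6 of 7 types, and the Paneth class overlapped (0.875 and 1.00 against 0.909 and 0.875). In enteroendocrine and tuft cells the nearest values were closer, with 1.12 against 1.22 and 1.12 against 1.19. The change of the mean ratio ran from 1.28-fold in tuft cells to 2.12-fold in stem cells over the 6. The same ratio with Acadvl in place of Acadl was without overlap in 5 of 7 types. Its mean was 1.62-fold higher on the ketogenic diet in stem cells, 1.90-fold in transit amplifying cells, 1.79-fold in enterocytes and 1.30-fold in goblet cells. In enteroendocrine and tuft cells it overlapped (1.02-fold and 1.13-fold), and in the Paneth class it was 2.65-fold higher on few UMIs. With 2 libraries a diet the exact permutation test has 6 assignments and cannot give a two-sided p under 0.33. The ratio of 2 genes shows an unequal change, not that either stayed the same. It rests on the counts already given above, and the types share the same 4 libraries, so they are not independent repeats. The share of other gene pairs without overlap was not counted.

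**Figure D3:**
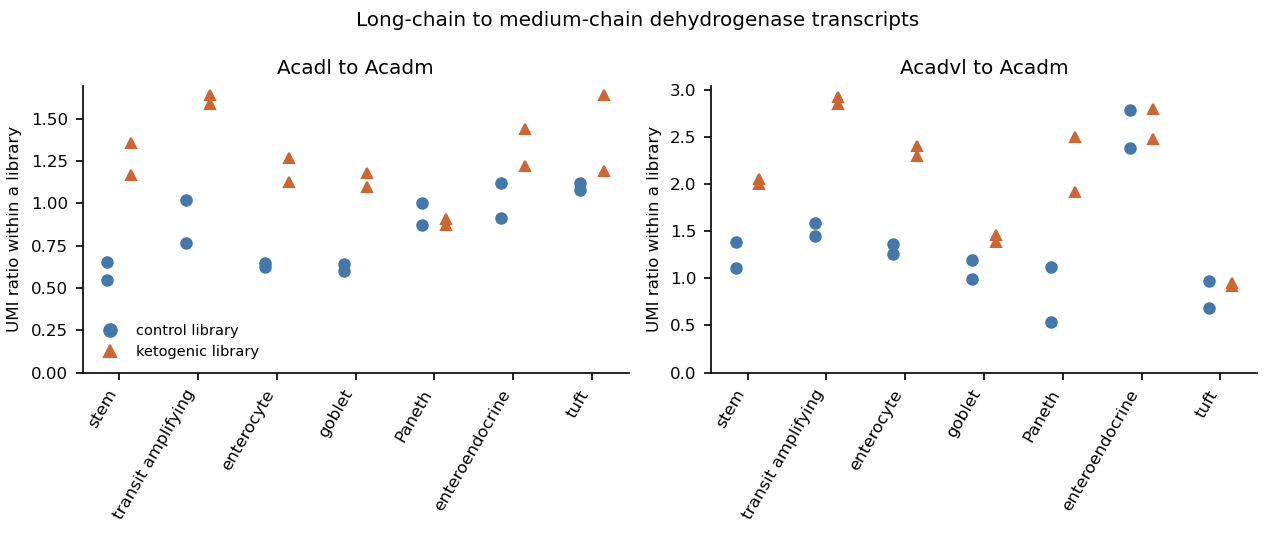
Ratio of Acadl UMIs to Acadm UMIs (left) and of Acadvl UMIs to Acadm UMIs (right) in each cell type. Control libraries are circles and ketogenic libraries triangles. On the left the ketogenic values lie above the control values in 6 of 7 types. The Paneth class, with 7 to 13 UMIs of Acadl or Acadm a library, overlaps there. On the right the diets overlap in enteroendocrine and tuft cells.

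The electron transfer flavoprotein was set against the dehydrogenases as a sum. The UMIs of Etfa and Etfb per UMI of the 5 dehydrogenases went from 1.49 and 1.45 in the control libraries to 1.32 and 1.26 in the ketogenic libraries over all cells. In stem cells this ratio went from 1.41 and 1.31 to 1.19 and 1.18, in transit amplifying cells from 1.55 and 1.64 to 1.45 and 1.27, and in enterocytes from 1.46 and 1.39 to 1.28 and 1.25. It did not overlap between diets in these 3 types or in goblet cells (1.93 and 1.91 against 1.68 and 1.61). In the Paneth class it was higher on the ketogenic diet without overlap, at 1.88 and 1.90 against 1.81 and 1.76, and in enteroendocrine and tuft cells the diets overlapped. Within the flavoprotein, Etfa per Etfb UMI was lower on the ketogenic diet in enterocytes, at 0.513 and 0.554 against 0.582 and 0.639, and in transit amplifying cells, at 0.598 and 0.627 against 0.698 and 0.718. It was higher in tuft cells, at 0.449 and 0.494 against 0.408 and 0.436, and overlapped in the other 4 types. Etfdh per UMI of both flavoprotein subunits was higher without overlap in goblet cells, at 0.0704 and 0.0590 against 0.0461 and 0.0455. It was also higher in stem cells, at 0.11 and 0.0989 against 0.085 and 0.0943, and in enterocytes, at 0.0888 and 0.0895 against 0.086 and 0.0862. In transit amplifying, enteroendocrine and tuft cells and the Paneth class this ratio overlapped between diets. These ratios are descriptions without a test.

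The share of single cells with a transcript was counted after each cell was thinned to 2000 UMIs, which left out 30 stem cells and 126 enterocytes of control library 2 and none of the other libraries. Of stem cells, 7.37% and 8.35% had an Acadl UMI on the control diet and 15.0% and 17.2% on the ketogenic diet. Without thinning the shares were 21.5% and 19.2% against 39.4% and 45.2%, at median depths of 5646 and 6294 against 5820.5 and 7722 UMIs. The shares of enterocytes with an Acadl UMI after thinning were 11.5% and 10.2% against 19.7% and 17.2%. Acadvl was found in 18.6% and 18.4% of thinned stem cells on the control diet and 24.8% and 23.9% on the ketogenic diet. The higher sums of both genes thus went with more cells that held a UMI, without overlap between diets. No type in the table should lack these genes, so no background share could be set beside these values.

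RNA carried over from enterocytes would give their transcripts a like low share in stem cells. The level of Rbp2 in stem cells was 0.0384 to 0.0634 of that in enterocytes of the same library, and that of Apoa1 0.0445 to 0.0837. The same ratio was 0.675 to 0.710 for Acadvl, 0.614 to 0.889 for Acadl and 0.610 to 0.864 for Acadm.

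Across cell types, with both diets pooled (mean ± SD of 4 libraries), the members followed different orders. The types were made from the expression of these cells, so the order is a description. Acadvl was highest in enterocytes at 166 ± 51 CPM, then transit amplifying cells at 144 ± 55, stem cells at 116 ± 36, enteroendocrine cells at 107 ± 15, tuft cells at 67.6 ± 13, goblet cells at 58.3 ± 12 and the Paneth class at 43.1 ± 22 CPM. Only the step from enteroendocrine to tuft cells had no overlap between libraries. Within each of the 4 libraries, enterocytes were above transit amplifying cells.

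Acadl was highest in tuft cells at 97.0 ± 21 CPM, with 83.5 ± 28 CPM in enterocytes, 82.0 ± 30 in transit amplifying cells, 66.1 ± 30 in stem cells, 49.2 ± 15 in enteroendocrine cells, 41.3 ± 16 in goblet cells and 27.8 ± 7.4 CPM in the Paneth class. Each neighbouring pair overlapped, but tuft cells were above enterocytes in 4 of 4 libraries. Acadm was highest in enterocytes at 91.7 ± 5.5 CPM, followed by tuft cells at 77.3 ± 12, stem cells at 70.5 ± 8.6 and transit amplifying cells at 65.2 ± 4.8 CPM. These 4 types had no library in the range of goblet cells (46.2 ± 2.9 CPM), and enteroendocrine cells (41.2 ± 5.9) and the Paneth class (30.1 ± 5.8) were lower in mean.

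Acads, the short-chain enzyme, stood apart in tuft cells at 109 ± 4.8 CPM, where its lowest library of 102 CPM was above the highest of any other type. Next came enterocytes at 78.8 ± 8.5 CPM, enteroendocrine cells at 74.9 ± 4.9, transit amplifying cells at 73.8 ± 6.9, stem cells at 67.9 ± 4.4, goblet cells at 52.5 ± 10 and the Paneth class at 38.1 ± 12 CPM, each overlapping the next. Acadsb, the branched-chain enzyme, had the widest spread over types. It stood at 90.8 ± 15 CPM in enteroendocrine cells, with libraries from 77.5 to 109 CPM, at 35.7 ± 11 CPM in tuft cells and at 16.7 ± 3.3 CPM in goblet cells, with no overlap between these 3. In stem cells, the Paneth class, enterocytes and transit amplifying cells it was 8.26 to 10.1 CPM in mean, with overlap. Enteroendocrine cells made up 1.77% to 5.82% of a library, with the highest share in ketogenic library 1. Acadsb in all cells had its highest value, 14.6 CPM, in that library. Ketogenic library 2 had a smaller share than control library 2 (2.78% against 3.02%) and more Acadsb in all cells (13.7 against 11.4 CPM). Its shares of tuft cells (3.16% against 2.49%) and goblet cells (14.3% against 11.6%), the next highest types for Acadsb, were larger than those of control library 2. With an equal mix of types in every library, the log2 fold change of Acadsb in all cells was 0.33, against 0.41 with the cells as found. The part of the cell mix in this change was not tested.

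Among the electron transfer genes, Etfa was highest in transit amplifying cells at 214 ± 26 CPM and enterocytes at 206 ± 17 CPM, followed by stem cells at 175 ± 23, enteroendocrine cells at 172 ± 25, tuft cells at 130 ± 16 and goblet cells at 122 ± 17 CPM, and the Paneth class was lower without overlap at 66.4 ± 9.9 CPM. Etfb was highest in enterocytes at 364 ± 62 CPM and transit amplifying cells at 328 ± 66, then tuft cells at 291 ± 24, goblet cells at 256 ± 27, stem cells at 238 ± 36, the Paneth class at 208 ± 54 and enteroendocrine cells at 170 ± 23 CPM, each overlapping the next. Etfdh ran from 50.1 ± 7.9 CPM in enterocytes through 43.1 ± 8.8 in transit amplifying cells, 40.4 ± 9.5 in stem cells, 36.1 ± 11 in tuft cells, 30.7 ± 12 in enteroendocrine cells and 21.2 ± 6.8 in goblet cells to 11 ± 5.1 CPM in the Paneth class, also with overlap of neighbours. The 2 flavoprotein genes thus had unlike orders, with enteroendocrine cells lowest of the 7 for Etfb but not for Etfa.

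Likeness of pattern was measured as Pearson's r of log2(CPM + 1) over 28 sums of 7 types and 4 libraries, which share libraries and depth. Among the members, r was 0.90 for Acadvl with Etfa and 0.88 for Etfa with Etfdh, but 0.46 for Etfa with Etfb. Acadsb had r between -0.47 (Etfb) and 0.34 (Acads) with the others. Among 7180 other genes, the closest to Acadvl were Hadhb (r = 0.92) and Acaa2 (r = 0.88), which encode the trifunctional protein's beta subunit and a thiolase. The closest to Acadl was Hadha (r = 0.85), the alpha subunit, and the closest to Acadm was Echs1 (r = 0.94), the short-chain enoyl-CoA hydratase. Etfb was most like Decr1 (r = 0.85), a reductase for unsaturated chains, and Etfdh most like Higd2a (r = 0.93). After these came Amn for Acadvl (r = 0.87) and Fbp2 and Gpx4 for Acadl (r = 0.82 and 0.81). Next for Acadm were Prdx6 and Higd2a (r = 0.91 and 0.90), and for Etfb Aldh9a1 and Glrx5 (r = 0.84 and 0.83). For the others the closest were Cops6, Mta3 and Tmem243 for Acads (r = 0.92), Syf2 for Acadsb (r = 0.96) and Slc7a8 for Etfa (r = 0.95).

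The steps around the dehydrogenases were read from lists of the pathway. Of the 4 genes of carnitine entry, which carries acyl groups into the mitochondrion, Cpt1b was not tested and Cpt1a, the entry enzyme itself, was called higher in stem cells. It had 32.7 and 36.6 CPM on the control diet and 75.7 and 55.8 CPM on the ketogenic diet (log2 fold change 0.88 ± 0.17, edgeR adjusted p = 0.0109), and lost the call without ketogenic library 1 (0.68, edgeR adjusted p = 0.131), among cells under 10% mitochondrial UMIs (0.69, edgeR adjusted p = 0.249) and with DESeq2 (adjusted p = 0.232). Of the 8 genes of the later steps, 3 were called higher in stem cells, 4 in transit amplifying cells, 2 in goblet cells and none in all cells or enterocytes, and none was called lower. With DESeq2, 4 of these genes (Hadha, Hadhb, Acaa2 and Eci2) were called in all cells and in enterocytes, as were Cpt1a and Slc25a20. Of all tested genes, DESeq2 called 208 in all cells and 176 in enterocytes, against 22 and 21 with edgeR.

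In stem cells the 3 were Eci2, an isomerase for unsaturated chains, Acaa2 and Hadhb. Eci2 had 79.2 and 74.1 CPM against 149 and 125 CPM (0.83 ± 0.13, edgeR adjusted p = 0.00153), and Acaa2 142 and 156 CPM against 237 and 252 CPM (0.71 ± 0.12, edgeR adjusted p = 0.00334). Hadhb had 106 and 128 CPM against 187 and 166 CPM (0.58 ± 0.13), with an edgeR adjusted p that rounds to the threshold of 0.05, and lost its call in 6 alternatives, among them without control library 1 (0.46, edgeR adjusted p = 0.134) and without ketogenic library 1 (0.50, edgeR adjusted p = 0.303). The log2 fold changes of 3 genes of the same list lay near 0 in stem cells: 0.08 ± 0.15 for Echs1, the hydratase of shorter chains, -0.08 ± 0.12 for Hadh, a later dehydrogenase for shorter chains, and 0.01 ± 0.12 for Eci1. In enterocytes they were -0.14 ± 0.10, -0.13 ± 0.11 and -0.02 ± 0.10. None of these 3 passed in any comparison.

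Outside stem cells the called genes of both lists, named here after their values were seen, were Cpt1a and Slc25a20 of carnitine entry and up to 4 of the later steps. In transit amplifying cells Cpt1a had 36.5 and 39.1 CPM on the control diet and 84.7 and 70.8 CPM on the ketogenic diet (1.03 ± 0.12, edgeR adjusted p = 0.00156). Slc25a20, the carnitine-acylcarnitine carrier of the inner membrane, had 15.2 and 13.1 CPM against 34.1 and 27.9 CPM (1.13 ± 0.17, edgeR adjusted p = 0.00833). The later-step genes called there were Acaa2, Eci2, Hadhb and Hadha, from 0.66 ± 0.13 for Hadha to 0.93 ± 0.12 for Eci2. Without ketogenic library 1 the calls of Slc25a20 and Hadha were lost (0.98 and 0.46, edgeR adjusted p = 0.0864 and 0.29). In goblet cells Eci2 had 50.9 and 49.1 CPM against 112 and 86.8 CPM (0.99 ± 0.13, edgeR adjusted p = 0.0011), and the other calls were Cpt1a (0.76 ± 0.13), Slc25a20 (0.91 ± 0.18) and Acaa2 (0.44 ± 0.09). Those of Slc25a20 and Acaa2 were lost without ketogenic library 1 (edgeR adjusted p = 0.0528 and 0.335), and with DESeq2 Eci2 alone of these 4 was called in goblet cells.

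The remaining lists held no call in any of the 8 sets of cells compared under the settings of the main test. They were 7 other acyl-CoA dehydrogenases, 3 other flavoenzymes that feed the flavoprotein, 5 genes of FAD supply, 13 of coenzyme Q synthesis, 3 peroxisomal acyl-CoA oxidases, 3 PPAR receptors and 2 genes that modify the flavoprotein, not all of which were tested in each. In stem cells the median log2 fold change was 0.17 over the 7 other acyl-CoA dehydrogenases (Acad8, Acad9, Acad10, Acad11, Acad12, Ivd and Gcdh), 0.07 over the 4 tested genes of FAD supply and 0.16 over the 13 of coenzyme Q synthesis, against 0.35 for the 8 members and 0.00 for all tested genes. In enterocytes these medians were 0.26, -0.20 (5 tested) and -0.06, against 0.32 and 0.02.

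**Figure D4:**
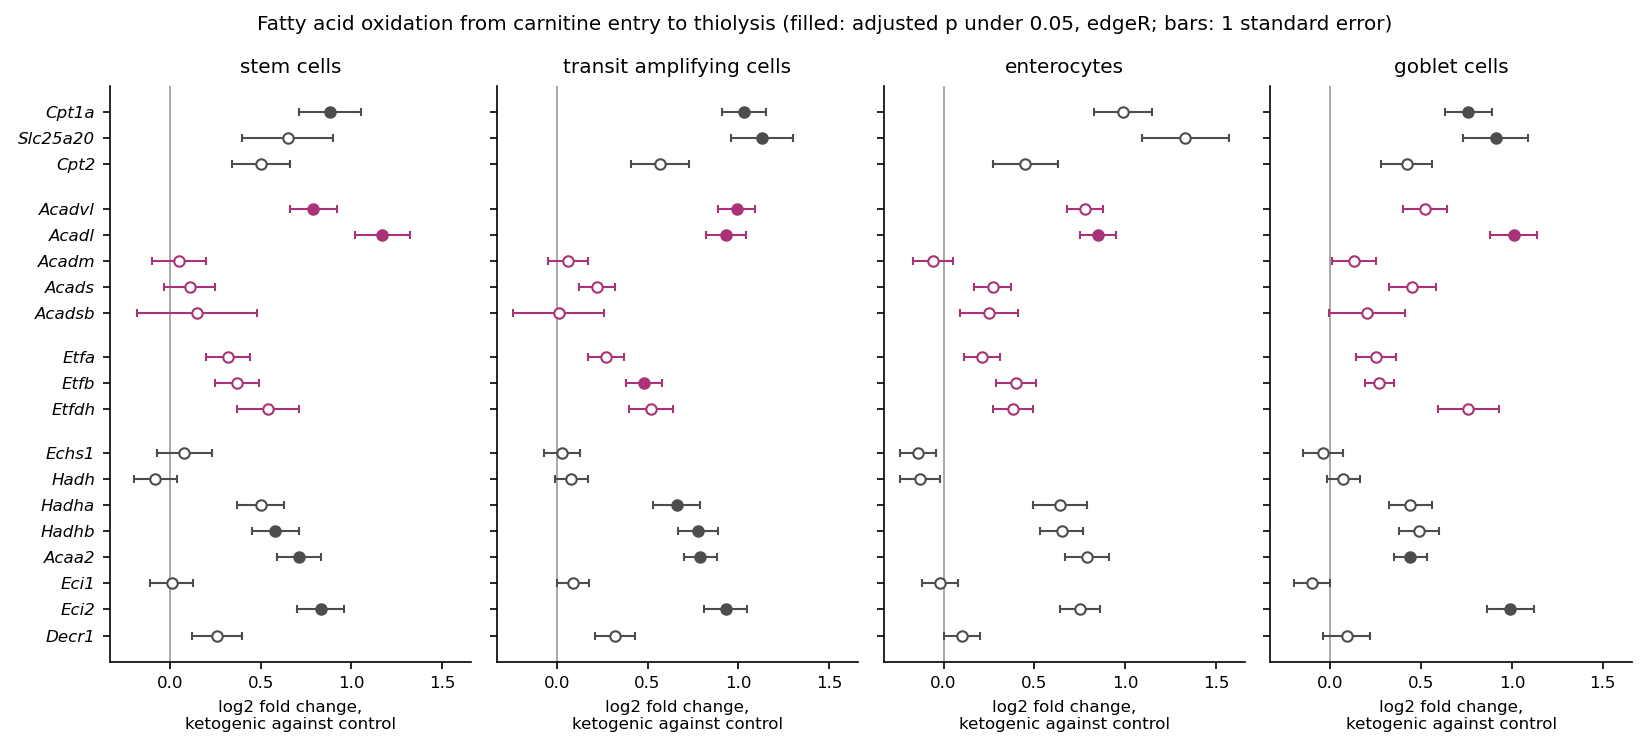
Log2 fold change, ketogenic against control, of genes from carnitine entry to thiolysis in 4 cell types, with the 8 members in purple and other steps in grey. Bars are 1 standard error and filled points have an edgeR adjusted p under 0.05. Acadvl, Acadl, Cpt1a, Hadhb, Acaa2 and Eci2 are filled in stem cells, and Acadm, Echs1, Hadh and Eci1 lie near 0 there.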

How the data were processed

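Raw UMI counts per gene and cell were used as the authors deposited them, with their table of library, diet and cell type. Per the submitters' processing notes, Cell Ranger 2.1.0 and mm10 were used; the sources used here do not give cell filters, doublet handling or the assignment of types. Cells are not replicates, so counts were added up within a library, once over all cells and once for each of 7 types. The test was edgeR 4.0.16 (quasi-likelihood, TMM, filterByExpr by diet) in R 4.3.3, with Benjamini-Hochberg adjustment over all tested genes and a threshold of 0.05. CPM are UMIs per 1000000 of the TMM-adjusted library size. P-values measure the spread between these libraries. Replicates were not copies: a chi-square of their counts was 28.3 and 21.3 times its degrees of freedom. Summed stem cells gave 1712487 to 3400566 UMIs a library, enterocytes 14946235 to 19465885 and the Paneth class 289338 to 526414. Scrublet in scanpy 1.11.5 called 0.0204% to 0.188% of cells a library, a rate at which it has not worked, so leaving out the 6% of cells with the highest scores was an alternative. The rest were RLE size factors, DESeq2 1.42.0, no filter, cells under 10% mitochondrial UMIs, thinned sums, a replicate block, an equal mix of types and leaving out each library. The fits were checked on simulated counts, in which the share of false calls was above the nominal rate in all cells, transit amplifying cells, enterocytes, enteroendocrine cells and tuft cells and below it in the other types, so calls near the threshold in those sets, such as Acadl in all cells and enterocytes and Etfb in transit amplifying cells, are less firm. The members and lists were chosen with earlier results of these data known, so no list was tested as a set. The named genes are the members, up to 4 called genes of each list in all cells, stem cells or enterocytes, and the 3 most alike genes of each member with a mean of at least 10 CPM, of which some are printed; further genes were named after their values were seen. Listed symbols Coq8a, Coq8b, Etfbkmt and Etfrf1 were read as Adck3, Adck4, Mettl20 and Lyrm5.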

Additional observations from a re-analysis of the deposited data

How the results depend on the processing

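The count of genes called stayed within 1.5 times its value for stem cells (2), transit amplifying cells (2 to 4 against 3) and the 3 rarest classes and the stem against enterocyte comparison (0) under each alternative run. In all cells the count of 1 became 2 with DESeq2, without a filter on low counts, with the replicate block and with an equal mix of types, 0 among cells under 10% mitochondrial UMIs and without the cells of highest doublet score, and 0 to 2 when 1 library was left out. In enterocytes 1 became 2 with DESeq2, RLE size factors, no filter, cells under 10% mitochondrial UMIs, thinned sums and the replicate block, and 0 to 2 when 1 library was left out. In goblet cells 1 became 2 among cells under 10% mitochondrial UMIs and without the cells of highest doublet score, 3 with the replicate block, and 2 to 5 when 1 library was left out. Same-numbered libraries did not vary together (correlations from -0.0374 to 0.0828 over the sums), so the block pairs them by number alone; it was not run on the stem against enterocyte fit, where library is the block. The counts for carnitine entry and the later steps moved by over 1.5 times in 23 and 22 of 89 alternative fits each. Of the lists with no call, PPAR receptors gained 1 or 2 calls (Ppard, Ppara) in 10, genes that modify the flavoprotein 1 (Mettl20) in 2, and coenzyme Q synthesis (Coq4) and other acyl-CoA dehydrogenases (Gcdh) 1 in 1 each. In the main fits of all cells and enterocytes the log2 fold change of Ppard was below 0 (-0.64 ± 0.14 and -0.84 ± 0.16). That of Ppara was above 0 (0.49 ± 0.13 and 0.57 ± 0.16). All genes called in all cells rose from 22 to 208 with DESeq2, 407 without a filter and 69 with the block. They were 26 with an equal mix of types, whose scaled sums are not raw counts. In enterocytes they rose from 21 to 176 with DESeq2, 28 with RLE size factors, 313 without a filter and 137 with the block. They were 51 there among cells under 10% mitochondrial UMIs and 33 with thinned sums. In goblet cells they were 52 in the main fit and among cells under 10% mitochondrial UMIs. They were 70 there without the cells of highest doublet score and 104 with the block.

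No called gene changed direction. Log2 fold changes of genes that were not called turned sign as follows, with ranges over leaving out each library. Acadm turned to 0.06 in all cells with an equal mix of types and to -0.02 in tuft cells under 10% mitochondrial UMIs, and it ranged from -0.12 to 0.30 in stem cells, -0.05 to 0.19 in transit amplifying cells, -0.16 to 0.03 in enterocytes and -0.04 to 0.36 in tuft cells. Acadsb in transit amplifying cells turned to -0.00 without a filter, -0.07 under 10% mitochondrial UMIs and -0.17 with thinned sums, and ranged from -0.15 to 0.13 there, from -0.18 to 0.86 in stem cells, -0.11 to 0.59 in goblet cells and -0.08 to 0.96 in tuft cells. Etfa in enteroendocrine cells turned to -0.02 with DESeq2 and without the cells of highest doublet score, -0.00 with RLE size factors and -0.05 with the replicate block, and ranged from -0.32 to 0.20; Etfdh ranged from -0.18 to 0.92. In tuft cells Acads turned to -0.00 without the cells of highest doublet score and -0.02 with thinned sums, Etfb turned to -0.01 without the cells of highest doublet score and ranged from -0.06 to 0.20, and Etfdh ranged from -0.30 to 0.85. Of the differences between stem cells and enterocytes, Acadvl turned to -0.03 with thinned sums and ranged from -0.02 to 0.09, Acadm ranged from -0.11 to 0.45, Acadsb turned to 0.01 with DESeq2, 0.06 under 10% mitochondrial UMIs and 0.07 without the cells of highest doublet score and ranged from -0.42 to 0.59, and Etfb turned to 0.01 without a filter and ranged from -0.19 to 0.17. The causes were not tested.

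Restricting to cells under 10% mitochondrial UMIs lowered the mean Acadvl level from 116 to 97.7 CPM in stem cells and from 166 to 146 CPM in enterocytes, and raised that of Acads from 67.9 to 78.0 CPM in stem cells. With 1 library left out, the remaining one of that diet takes its spread from the other diet's pair. Depth limits the Paneth class most: 4 of the 8 genes were too low to be tested there.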
